A study of Mus musculus with 72 samples.

Results

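This account follows 35 genes of DNA double-strand break repair and of the signalling that breaks set off, in the blood of mice exposed to neutrons or x-rays. The genes were listed by function (7 of end joining, 10 of homologous recombination, 3 of the Mre11-Rad50-Nbn complex, 3 of the Fanconi anaemia pathway, 5 that act on chromatin beside breaks and 7 of the checkpoint) and were found by gene name. For 34 of the 35 a probe was found by name. Of these, 29 were detected and tested, out of 16086 genes tested in all. Rad51c, a gene of recombination, had no probe under its name and is not analysed here.

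A double-strand break is recognised by sensor complexes that activate the kinases Atm, Atr and DNA-PK, whose catalytic subunit is encoded by Prkdc. In end joining the Ku proteins hold the broken ends and a ligase complex seals them directly, whereas recombination copies a sister chromatid and is used in cells that have replicated their DNA. Circulating leukocytes mostly do not divide, and lymphocytes, B cells above all, are known to be sensitive to radiation.

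Blood was taken from male C57BL/6 mice, aged 8 to 10 weeks when exposed, at 1, 3 or 7 days after exposure to 0.25 or 1 Gy of neutrons or to 1 or 4 Gy of x-rays, and from sham-irradiated controls of the same days that were kept in the holders with the beam off. The neutron beam also carried a gamma-ray component, and the whole body was exposed. At days 1 and 7 all 4 exposures were represented, and at day 3 only 0.25 Gy neutrons and 1 Gy x-rays. Each of the 72 arrays held the globin-reduced RNA of 1 mouse, with 5 or 6 mice in each of the 13 groups.

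The level of a gene is given as the log2 signal of its brightest detected probe minus the median of all detected probes on that array, so a level of 0 is the median probe. A gene was called changed at p below 0.001 and a false discovery rate below 5% over all genes (limma). The 1 Gy neutron arrays of day 7 were the dimmest: 40.2 to 50.3% of their spots were well above background, against 54.3 to 63.9% in the controls of that day, and 5 of the 29 genes were not well above background on any of these 6 arrays. For a gene dim on every array of a group, its values there were raised to the lowest signal well above background on that array. A fold marked at least comes from these raised values. That floor is taken over all probes, so the fold is not a strict limit, and any p beside it is of the measured values. In the authors' table of processed values, 60 of the 72 columns followed the array of another sample, 21 of them one of another condition. The labels of the arrays' own files were used, and counts of called genes without the arrays whose column followed another condition are given beside the results. Such a count leaves out the sample that owns the column and keeps the array that the column followed. It therefore does not test whether the file labels are right. Slide and scan date were not balanced over the groups, and no array of either x-ray dose was scanned on the date of its controls on any day.

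Repair and signalling genes fell more often than they rose after 1 Gy neutrons on both days and after 4 Gy x-rays on day 1, and after 4 Gy x-rays on day 7 about as many rose as fell. At day 1, 0 rose and 7 of 29 fell after 1 Gy neutrons, where 16.3% of all genes were called (5.62% higher and 10.7% lower). With 4 Gy x-rays 0 rose and 10 fell, where 29.3% of all genes were called (12.8% higher and 16.6% lower). With 1 Gy x-rays 1 gene, Trp53bp1, fell, where 6.46% of all genes were called (2.66% higher and 3.8% lower). At day 7, 1 rose and 12 fell after 1 Gy neutrons, where 36.2% of all genes were called (18.5% higher and 17.8% lower). In the 4 Gy x-ray mice 3 rose and 4 fell at that time, where 15.8% were called (7.71% higher and 8.12% lower), which for 29 genes is near the share of all genes.

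The median change of the 29 genes was −0.44 after 1 Gy neutrons on day 1 and −0.49 after 4 Gy x-rays, against −0.08 and −0.09 over all genes. Its value on day 7 was −0.77 with 1 Gy neutrons and −0.10 with 4 Gy x-rays, against −0.05 over all genes in both. Of the 29 genes, 19 were called in at least 1 comparison with controls. Of these, 16 were only ever lower, Brca2 was only higher, and Trp53bp1 and Blm fell at the first time and rose at the last. The share of all genes called in at least 1 of these comparisons was not counted. In a single comparison it reached 36.2%, so the 19 do not by themselves set these genes apart. All these comparisons of a day share the same control mice.

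The groups were also compared mouse by mouse. At day 1 every 1 Gy neutron mouse was below every control for 9 of the 29 genes and above for 0, where 13.1% and 6.39% of all genes did so. With 4 Gy x-rays it was 11 below and 0 above (21.4% and 17.2% of all genes), with 1 Gy x-rays 1 below and 0 above (4.81% and 4.08%) and with 0.25 Gy neutrons 0 in either direction (2.05% and 0.771%). The day 7 counts were 12 below and 1 above with 1 Gy neutrons (18.1% and 16.7%) and 2 below and 4 above with 4 Gy x-rays (8.32% and 7.92%). It was 1 below and 0 above with 0.25 Gy neutrons (1.98% and 3.01%), and 0 in either direction with 1 Gy x-rays (3.62% and 3.82%). At day 3 it was 3 below and 0 above with 0.25 Gy neutrons (4.3% and 1.5%) and 0 below and 1 above with 1 Gy x-rays (2.88% and 4.58%).

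The count after 4 Gy x-rays on day 7 was the least stable to single mice: it was 2 without control mouse 1 or without x-ray mouse 4 or 5, 3 without control mouse 4 or x-ray mouse 3, and 4 without x-ray mouse 2. At day 1 it was 6 without control mouse 2 or 3. Without the arrays whose table column followed another condition, the counts after 1 Gy neutrons were 7 lower at day 1, as with all arrays, and 6 lower with 0 higher at day 7. For the 4 Gy x-ray mice they were 9 lower at day 1, then 6 lower and 1 higher at the later time. Trp53bp1 after 1 Gy x-rays was then not called (−0.68, adjusted p = 0.0315). Most calls depended on how background was treated, as described with the normalizations further on.

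**Figure D1:**
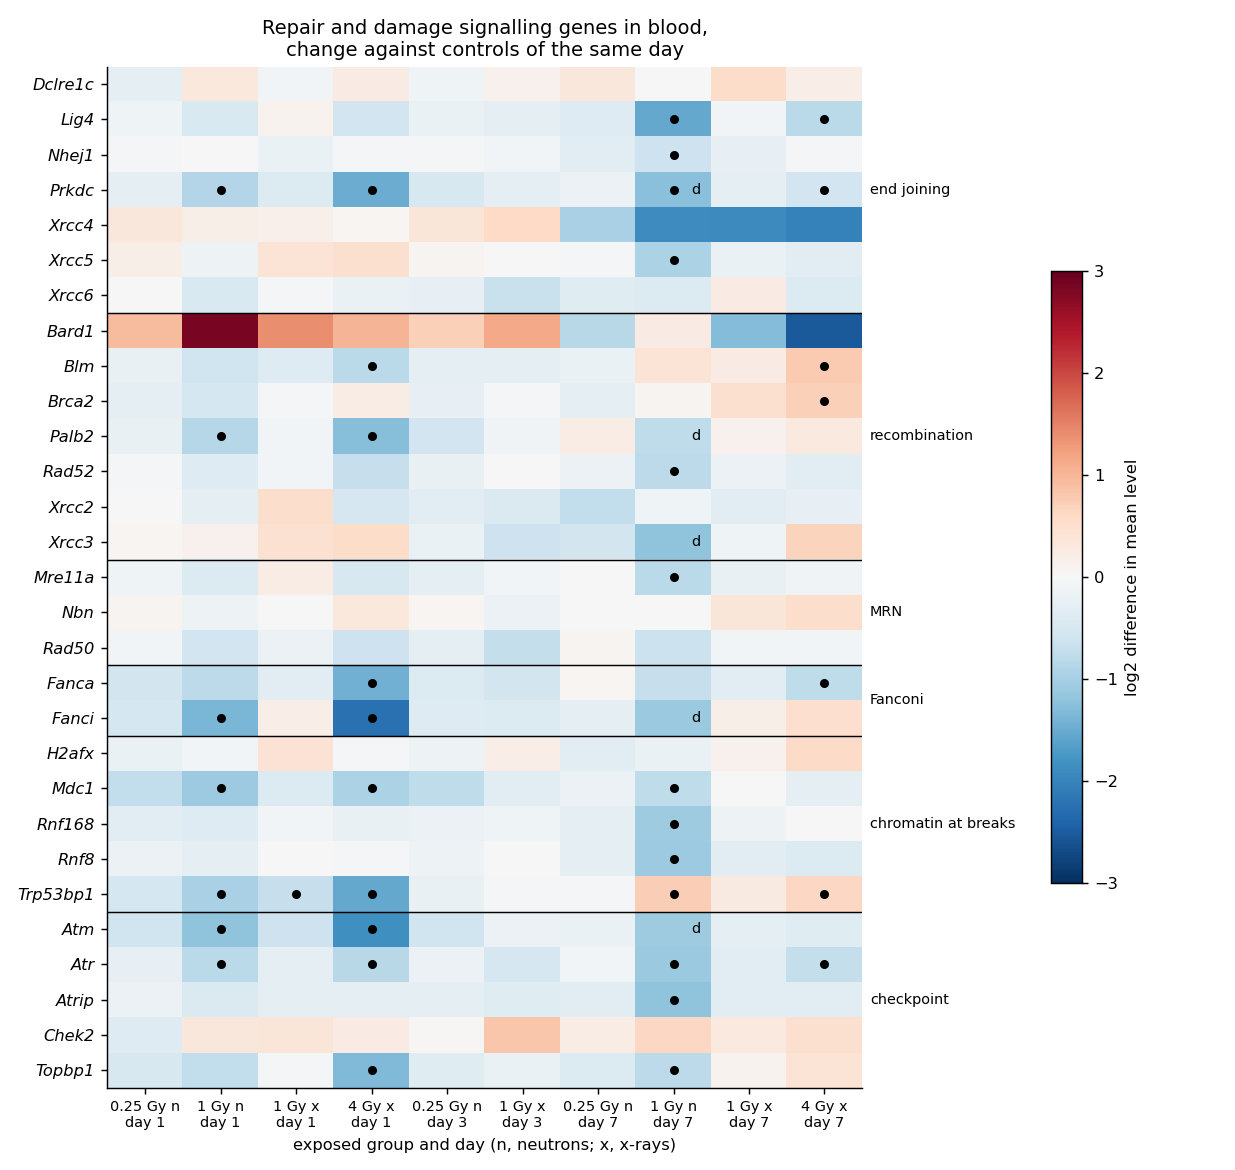
Log2 difference in mean level between each exposed group and the controls of the same day for the 29 tested genes (rows, grouped by role) in 10 comparisons (columns), with a dot where the gene was called. The letter d marks a gene that was not well above background on any array of the exposed group, and the dots cluster in the columns of 1 Gy neutrons and 4 Gy x-rays.

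Among the end joining genes, the catalytic subunit of DNA-PK was the one lowered in most comparisons. Prkdc, which encodes this kinase, stood at −1.22, −1.78, −1.46, −1.58 and −1.19 in the 5 controls of day 1. In the 6 mice given 1 Gy neutrons the lowest, median and highest levels were −2.58, −2.28 and −2.08. The 5 mice given 4 Gy x-rays were at −3.23, −2.72, −2.68, −3.23 and −2.82. Neither exposed group overlapped the controls, and the fall was 1.84-fold after 1 Gy neutrons (log2 −0.88, SE 0.15, adjusted p = 0.00143) and 2.81-fold after 4 Gy x-rays (−1.49, SE 0.19, adjusted p = 0.000108, with 4 of the 5 exposed arrays well above background).

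At day 7 the controls ranged from −2.15 to −1.59 for Prkdc (median −1.88), and the 1 Gy neutron mice from −3.44 to −2.75 (median −3.16). The probe was not well above background on any array of that neutron group, so the fall is given as at least 1.79-fold. The measured values gave an adjusted p of 2.18e-05 (limma), and with normexp the change was 0.68. The 6 mice given 4 Gy x-rays lay between −2.58 and −2.10 (median −2.45) and overlapped the controls, with a change of −0.58 (SE 0.13, adjusted p = 0.0044). Prkdc was thus the end joining gene called in 4 comparisons with controls.

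Lig4, the ligase that seals the ends, fell at day 7. Its controls lay between −1.92 and −0.94 (median −1.71), the 1 Gy neutron mice between −3.79 and −2.11 (median −3.37) and the 4 Gy x-ray mice between −2.66 and −2.03 (median −2.39). No exposed mouse reached the lowest control. The change was −1.54 after 1 Gy neutrons (SE 0.29, adjusted p = 0.000562), the largest fall of the 29 genes that was called in that comparison, with the probe well above background on 1 of the 6 exposed arrays. After 4 Gy x-rays it was −0.80 (SE 0.18, adjusted p = 0.00409), the largest fall called there. At day 1 Lig4 was not called (−0.45 with 1 Gy neutrons, −0.58 with 4 Gy x-rays).

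The Ku subunit gene Xrcc5 and the ligase cofactor Nhej1 were called only after 1 Gy neutrons on day 7 among the comparisons with controls. Xrcc5 lay between −0.88 and −0.30 in the controls (median −0.40) and between −1.94 and −0.98 after neutrons (median −1.39), a change of −0.96 (SE 0.18, adjusted p = 0.00043) with no overlap. Nhej1 ranged from −0.90 to −0.34 in the controls (median −0.56) and from −1.56 to −0.89 after neutrons (median −1.28). These ranges overlapped, and the change was −0.62 (SE 0.15, adjusted p = 0.0027). The remaining end joining genes were called in no comparison with controls: Xrcc6, the other Ku subunit, changed by −0.67 to 0.25, Dclre1c, the Artemis nuclease, by −0.27 to 0.56, and Xrcc4, the partner of Lig4, by −2.02 to 0.59. Dimmer Dclre1c probes disagreed in direction: after 4 Gy x-rays on day 7 one gave 0.62 and another −0.86, where the probe used gave 0.21, and after 1 Gy x-rays on day 7 they gave 0.70 and −0.52, where it gave 0.56. The Xrcc4 values of day 7 rest on controls that were spread from −0.70 to 2.87.

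Among the recombination genes, Palb2 and Blm fell at day 1, and Blm and Brca2 rose at day 7. Palb2, which links Brca1 to Brca2, stood at −3.05, −2.88, −2.85, −3.66 and −2.91 in the controls of day 1. The 6 mice given 1 Gy neutrons lay between −4.12 and −3.77 (median −3.92), and after 4 Gy x-rays the 5 mice were at −4.24, −4.83, −4.39, −4.58 and −3.67. Both groups were below every control, by −0.86 (SE 0.16, adjusted p = 0.00238) and by −1.27 (SE 0.24, adjusted p = 0.00109). The probe was well above background on 4 of the 5 x-ray arrays. A further Palb2 probe, not detected by the filter, changed by −0.78 and −1.39 in the same comparisons.

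Blm, a helicase that dissolves recombination intermediates, was at −1.75, −1.52, −1.46, −1.90 and −1.38 in the controls of day 1 and at −2.36, −2.21, −2.35, −2.63 and −2.45 after 4 Gy x-rays. The groups did not overlap, and the change was −0.80 (SE 0.16, adjusted p = 0.00154). At day 7 the direction was the opposite. The controls lay between −1.68 and −1.32 (median −1.45) and the 4 Gy x-ray mice between −0.90 and −0.56 (median −0.63), a rise of 0.79 (SE 0.11, adjusted p = 0.000235) and the largest rise called in that comparison. With 1 Gy neutrons Blm changed by −0.59 at day 1 and 0.42 at day 7, neither of them called.

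Brca2, a mediator of homologous recombination, rose after 4 Gy x-rays on day 7. It lay between −3.18 and −2.44 in the controls (median −2.74) and between −2.43 and −1.84 in the exposed mice (median −2.0), with no overlap and a change of 0.72 (SE 0.15, adjusted p = 0.0029). Rad52, an annealing factor, was lower after 1 Gy neutrons on day 7: the controls ranged from −1.44 to −1.12 (median −1.22) and the exposed mice from −2.43 to −1.62 (median −2.06). The change was −0.78 (SE 0.15, adjusted p = 0.000602), with the probe well above background on 2 of the 6 exposed arrays.

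The other recombination genes were called in no comparison with controls. Xrcc2 and Xrcc3, which act in strand exchange, changed by −0.75 to 0.52 and by −1.20 to 0.66. Bard1, the partner of Brca1, changed by −2.51 to 2.85, but it had usable spots in as few as 2 of 5 mice of a group and its 3 probes gave 2.85, −0.91 and 0.10 after 1 Gy neutrons on day 1. Brca1 itself was not detected, with 94.6% of its spots dim or flagged as outliers. Rad54l, a motor protein of strand exchange, was also not detected (58.9% of spots). It was well above background on 2 of 5 control arrays of day 1 and on none after 1 Gy neutrons or 4 Gy x-rays. Because most of these control arrays were dim as well, no fold is given. It was not tested. On day 7 it was well above background on 6 of 6 arrays after 4 Gy x-rays and on 4 of 6 control arrays.

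The Mre11-Rad50-Nbn complex tethers and trims broken ends and activates Atm. Of its 3 genes, Mre11a was called in 1 comparison with controls. At day 7 it lay between −0.27 and 0.27 in the controls (median 0.17) and between −1.19 and −0.29 after 1 Gy neutrons (median −0.64), which do not overlap, and the change was −0.81 (SE 0.16, adjusted p = 0.000926). Nbn changed by −0.17 to 0.53 and was not called. Rad50 was not called either, with changes of −0.72 to 0.09. Its dimmer probe changed by −0.97 with 1 Gy neutrons and −0.87 with 4 Gy x-rays on day 1, where the probe used gave −0.58 and −0.62.

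Of the Fanconi genes, Fanci held the largest fall called among the 29 genes on day 1, both with 1 Gy neutrons and with the higher x-ray dose. Fanci, which is ubiquitinated with Fancd2 at stalled forks and cross-links, stood at −1.94, −2.24, −2.41, −3.03 and −2.20 in the controls. The 6 mice given 1 Gy neutrons lay between −4.17 and −3.17 (median −3.90), and after 4 Gy x-rays the 5 mice were at −4.10, −5.40, −5.10, −4.68 and −3.73. Both groups were below every control. The fall was 2.59-fold after 1 Gy neutrons (−1.37, SE 0.24, adjusted p = 0.00176) and 4.72-fold after 4 Gy x-rays (−2.24, SE 0.32, adjusted p = 0.000246), where the probe was well above background on 1 of the 5 exposed arrays.

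Fanca, of the core complex that ubiquitinates Fanci, fell after 4 Gy x-rays. Its controls of day 1 were at 0.53, 0.61, 0.39, −0.24 and 0.23 and the exposed mice at −0.81, −1.61, −1.94, −0.51 and −0.80, a change of −1.44 (SE 0.29, adjusted p = 0.00154) with no overlap. At day 7 the exposed mice lay between −0.49 and 0.53 (median 0.02) and the controls between 0.50 and 0.99 (median 0.77), so that they overlapped, and the change was −0.77 (SE 0.17, adjusted p = 0.00361). Fancd2 was not detected (64.3% of spots). On day 7 it was well above background on 6 of 6 arrays after 4 Gy x-rays, on 5 of 5 after 1 Gy x-rays and on 2 of 6 control arrays, and at day 1 on none of the arrays after 1 Gy neutrons or after 1 or 4 Gy x-rays.

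Among the genes that act on chromatin beside breaks, Trp53bp1 changed direction between the days. This gene encodes 53BP1, which protects ends from resection and favours end joining. It stood at −0.87, −0.97, −0.58, −0.55 and −0.70 in the controls of day 1. The 6 mice given 1 Gy neutrons lay between −1.96 and −1.47 (median −1.68), the 6 given 1 Gy x-rays between −1.71 and −1.15 (median −1.48), and the 5 given 4 Gy x-rays at −2.13, −2.58, −2.34, −2.18 and −2.08. All 3 groups lay below every control. The change was −0.97 after 1 Gy neutrons (SE 0.14, adjusted p = 0.00081), −0.70 after 1 Gy x-rays (SE 0.13, adjusted p = 0.00614) and −1.53 after 4 Gy x-rays (SE 0.16, adjusted p = 3.99e-05). With scan date as a random block, the change after 1 Gy x-rays was −0.69 and was not called (adjusted p = 0.0754).

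At day 7 the controls lay between −1.33 and −1.09 for Trp53bp1 (median −1.18). The 1 Gy neutron mice lay between −0.99 and −0.07 (median −0.46), and after 4 Gy x-rays between −0.96 and −0.24 (median −0.56). Every exposed mouse was above every control. The rise was 0.74 after 1 Gy neutrons (SE 0.17, adjusted p = 0.00204), the only rise of the 29 genes called there, and 0.61 after 4 Gy x-rays (SE 0.14, adjusted p = 0.00443). With scan date as a block the neutron rise was 0.56 and was not called (limma, adjusted p = 0.153). Neither rise was called with normexp (0.60 and 0.35). Without the arrays whose table column followed another condition, they were 0.81 and 0.66 and not called (limma, adjusted p = 0.00936 and 0.0193). A further Trp53bp1 probe that was not detected changed by −1.03 and 0.63 after 1 Gy neutrons on days 1 and 7, and by −0.92 and 0.51 after 4 Gy x-rays.

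Mdc1, the scaffold that binds phosphorylated H2AX, fell after the higher doses. It was at 0.59, 0.74, 0.63, 0.08 and 0.62 in the controls of day 1, between −0.86 and −0.24 after 1 Gy neutrons (median −0.51) and at −0.06, −0.73, −0.83, −0.35 and −0.17 after 4 Gy x-rays. No exposed mouse reached a control, and the changes were −1.09 (SE 0.17, adjusted p = 0.00102) and −0.96 (SE 0.20, adjusted p = 0.00205). At day 7 it lay between 0.04 and 0.46 in the controls (median 0.30) and between −0.69 and −0.17 after 1 Gy neutrons (median −0.52), a change of −0.77 (SE 0.12, adjusted p = 0.000178).

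The ubiquitin ligases Rnf8 and Rnf168, which act after Mdc1, were called only after 1 Gy neutrons on day 7 among the comparisons with controls. Rnf8 ranged from 1.08 to 1.42 in the controls (median 1.29) and from −0.01 to 0.45 in the exposed mice (median 0.17), and changed by −1.08 (SE 0.12, adjusted p = 8.06e-06). Rnf168 ranged from −0.22 to 0.10 in the controls (median −0.14) and from −1.81 to −0.50 in the exposed mice (median −1.23), and changed by −1.07 (SE 0.19, adjusted p = 0.000303). Neither gene overlapped between the groups. H2afx, which encodes the H2AX histone, was called in no comparison with controls and changed by −0.35 to 0.57.

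Among the checkpoint genes, both apical kinases fell. Atm, activated by breaks, stood at −1.76, −1.98, −1.40, −1.88 and −0.96 in the controls of day 1. The 1 Gy neutron mice lay between −3.25 and −2.47 (median −2.74), and after 4 Gy x-rays they were at −3.60, −3.28, −3.45, −3.50 and −3.32. The groups did not overlap, and the fall was 2.31-fold after 1 Gy neutrons (−1.21, SE 0.21, adjusted p = 0.00155) and 3.57-fold after 4 Gy x-rays (−1.83, SE 0.21, adjusted p = 5.92e-05). Its dimmer probe changed by −1.01 and −1.33. At day 7 Atm was not well above background on any 1 Gy neutron array and was at least 1.53-fold lower there, which was not called, and its dimmer probe changed by −0.27.

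Atr, the kinase of resected DNA and stalled forks, was lower in 4 comparisons with controls. It was at 1.47, 1.08, 1.25, 0.68 and 1.24 in the controls of day 1, between 0.07 and 0.60 after 1 Gy neutrons (median 0.38), and at 0.16, 0.47, 0.54, 0.02 and 0.36 after 4 Gy x-rays. The changes were −0.81 (SE 0.17, adjusted p = 0.00391) and −0.84 (SE 0.19, adjusted p = 0.00281), with no overlap. At day 7 the controls lay between 0.80 and 1.21 (median 1.12), the 1 Gy neutron mice between −0.47 and 0.42 (median −0.11), and the 4 Gy x-ray mice between 0.05 and 0.84 (median 0.36). The fall was −1.11 after neutrons (SE 0.16, adjusted p = 8.6e-05) without overlap, and −0.71 after x-rays (SE 0.15, adjusted p = 0.00306), where 1 exposed mouse was above the lowest control.

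Both tested partners of Atr fell after 1 Gy neutrons on day 7. Atrip, which brings Atr to single-stranded DNA, was called only after 1 Gy neutrons on day 7 among the comparisons with controls, where it lay between −1.13 and −0.81 (median −1.01) against −0.02 to 0.50 in the controls (median 0.23). The change was −1.21 (SE 0.13, adjusted p = 7.96e-06). Topbp1, the activator of Atr, was at −0.08, −0.07, −0.20, −0.99 and −0.18 in the controls of day 1 and at −1.66, −2.08, −1.74, −1.66 and −1.05 after 4 Gy x-rays, a change of −1.33 (SE 0.24, adjusted p = 0.000758). At day 7 it lay between −0.58 and −0.08 in the controls (median −0.34) and between −1.37 and −0.62 after 1 Gy neutrons (median −1.24), a change of −0.79 (SE 0.16, adjusted p = 0.000775). The groups did not overlap in these 3 comparisons. Chek2, the effector kinase of Atm, changed by −0.39 to 0.84 and was called in none. The effector kinase Chek1 (26.8% of spots dim or flagged as outliers) and Clspn, which recruits it to Atr (82.1%), were not detected and not tested.

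**Figure D2:**
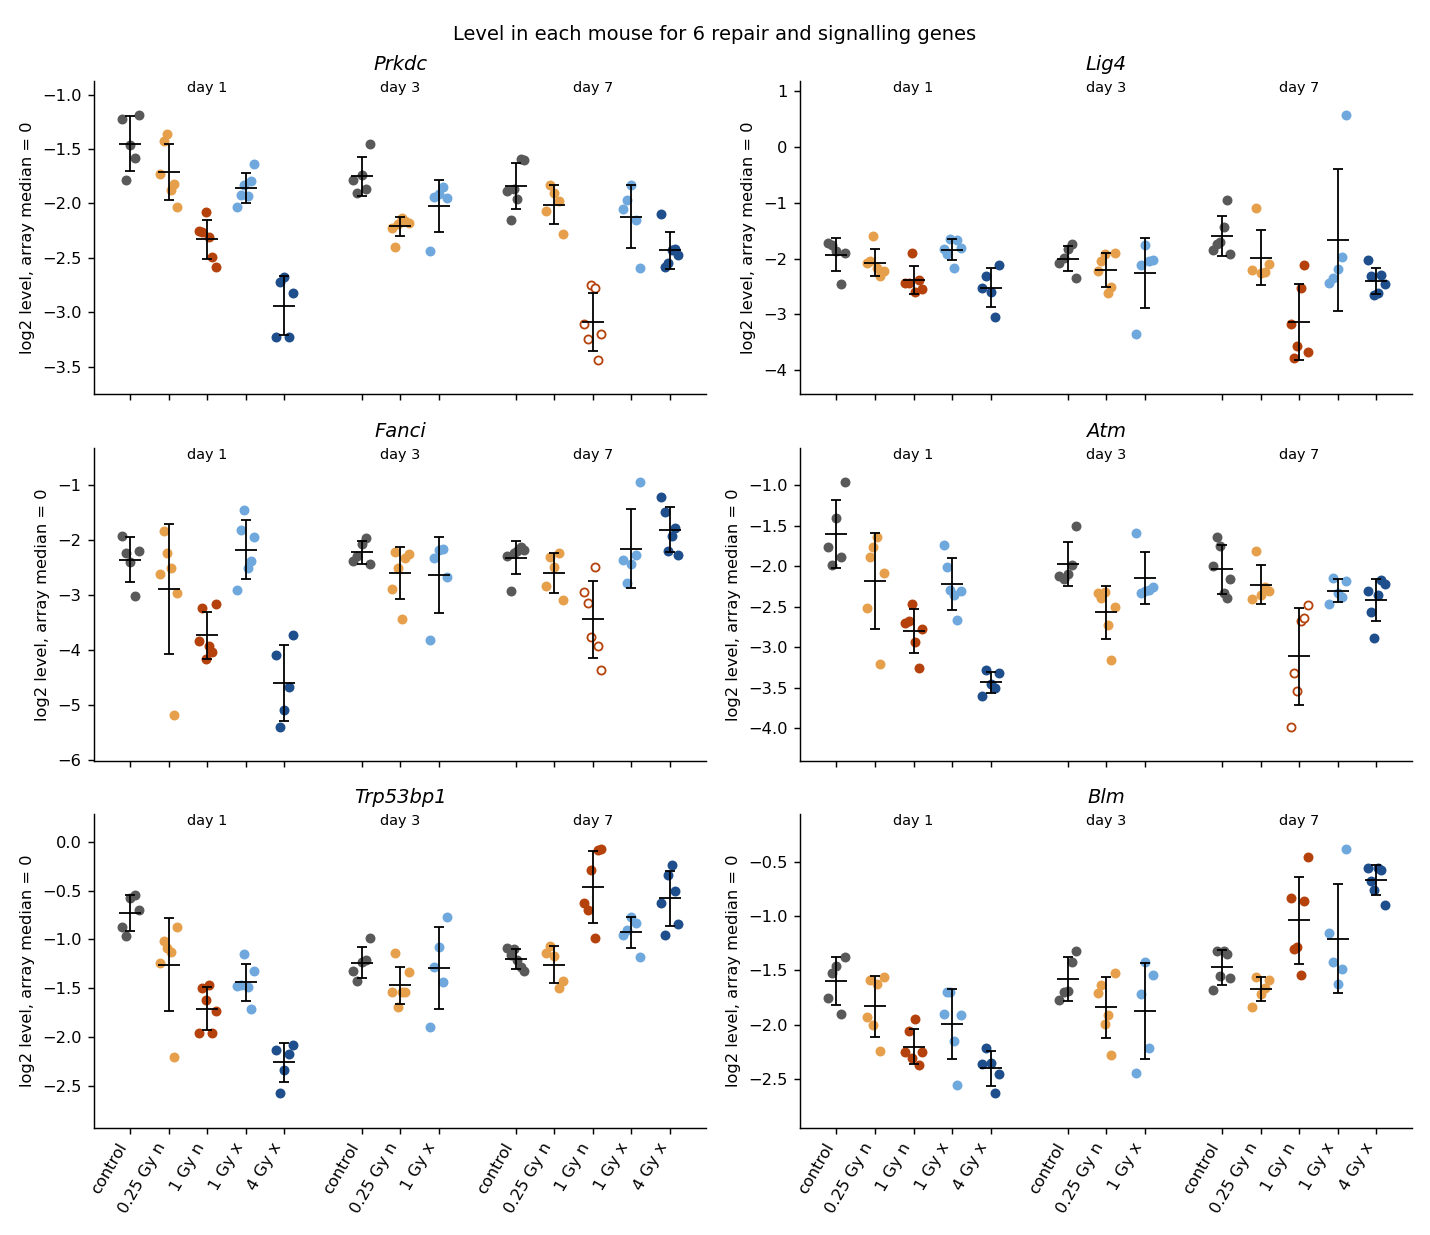
Level in each mouse (points; log2 signal with the array median at 0) for 6 genes in the 13 groups, with the mean and SD of each group as bars; open points mark a group in which no array was well above background. Trp53bp1 and Blm lay below the controls after 1 Gy neutrons and 4 Gy x-rays on day 1, and at day 7 the 4 Gy x-ray mice lay above the controls in both genes.

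The start regions of Atr, Mdc1 and Trp53bp1 are printed because these genes were called lower in 3 or more comparisons with controls (Atr in 4, Mdc1 and Trp53bp1 in 3 each). Prkdc was called lower in 4 as well. Each line gives the 150 bases before the RefSeq transcription start, 5′ to 3′ on the strand of the gene. Capitals mark an E2F-type octamer, that is, TTTCCCGC, TTTCGCGC, TTTGCCGC or TTTGGCGC on either strand. They lie in GRCm38.p6 at chr9:95857447-95857596 (plus strand, Atr), chr17:35841348-35841497 (plus, Mdc1) and chr2:121271408-121271557 (minus, Trp53bp1).
Atr: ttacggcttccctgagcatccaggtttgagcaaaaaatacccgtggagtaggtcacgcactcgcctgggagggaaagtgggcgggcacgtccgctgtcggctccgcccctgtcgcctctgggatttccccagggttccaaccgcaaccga
Mdc1: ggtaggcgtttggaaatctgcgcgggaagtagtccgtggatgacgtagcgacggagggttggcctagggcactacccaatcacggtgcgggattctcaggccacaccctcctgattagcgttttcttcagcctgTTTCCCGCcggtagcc
Trp53bp1: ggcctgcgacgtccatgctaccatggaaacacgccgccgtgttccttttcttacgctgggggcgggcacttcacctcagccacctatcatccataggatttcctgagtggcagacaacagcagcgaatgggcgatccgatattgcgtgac
Mdc1 held 1 octamer in these 150 bases, and Atr and Trp53bp1 held none. From 250 bases before to 50 after the start, the octamer was found in 8 of the 29 listed genes that have a promoter in the RefSeq table (27.6%): Mdc1, Topbp1, Xrcc6, Brca2, Chek2, Bard1, Clspn and Rad51c. It was found in 744 of all 32851 promoters of that length (2.26%), a share of promoters, where the first is a share of genes. Among the 8 genes, only Mdc1 and Topbp1 were called lower than controls in any comparison. Brca2 was called only higher, and the others were not called or not tested. A match describes these letters only and is no evidence of binding.

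The comparison of radiation types at the same dose asks how neutrons and x-rays differ at 1 Gy. At day 1, 0 of the 29 genes were higher and 4 were lower after neutrons than after x-rays, where 9.64% of all genes were called (1.28% higher and 8.36% lower). The median difference was −0.41, against −0.01 over all genes. Fanci differed most, with x-ray mice between −2.92 and −1.46 (median −2.17) and neutron mice between −4.17 and −3.17, a difference of −1.56 (SE 0.26, adjusted p = 0.00205). Palb2 differed by −0.78 (SE 0.14), Topbp1 by −0.67 (SE 0.15) and Mre11a by −0.64 (SE 0.14), and none of the 4 overlapped. The x-ray mice ranged from −3.40 to −2.60 for Palb2, from −0.60 to −0.07 for Topbp1 and from −0.31 to 0.46 for Mre11a. Between these groups 7 of the 29 did not overlap, all lower (10.1% of all genes, and 1.96% higher). With scan date as a block 0 were called: Palb2 then differed by −0.78 and Mre11a by −0.68, about as without the block, while Fanci differed by −1.17 and Topbp1 by −0.45 (adjusted p = 0.131 to 0.279 for the 4). Without the arrays whose table column followed another condition, 2 were called, and the differences were −1.81, −0.80, −0.68 and −0.83 for Fanci, Palb2, Topbp1 and Mre11a.

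At day 7, 0 were higher and 5 lower after 1 Gy neutrons than after 1 Gy x-rays, where 20.1% of all genes were called (13.1% higher and 6.98% lower). Prkdc was at −2.05, −1.97, −1.83, −2.15 and −2.59 in the x-ray mice and at least 1.48-fold lower after neutrons. The measured values gave an adjusted p of 0.00171 (limma), and with normexp the difference was 0.82. Topbp1 differed by −0.89 (SE 0.19), Atrip by −0.86 (SE 0.15), Mdc1 by −0.75 (SE 0.15) and Rnf8 by −0.73 (SE 0.14), all without overlap. In all 10 of the 29 did not overlap, each lower (11.9% of all genes, and 12.8% higher). The direction depended on how background was treated. With normexp 5 of the 29 were called higher and 1, Rnf8, lower, and the median difference was 0.28, against 0.03 over all genes, where without it these medians were −0.61 and −0.01. With scan date as a block 0 were called, with differences of −0.93, −0.81, −0.54 and −0.81 for Topbp1, Atrip, Mdc1 and Rnf8, and 1 was called without the arrays whose table column followed another condition. For the genes not called, the 95% intervals are those of the plot of 1 Gy neutrons against x-rays, and a gene that missed the threshold is not shown to be alike in both.

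**Figure D3:**
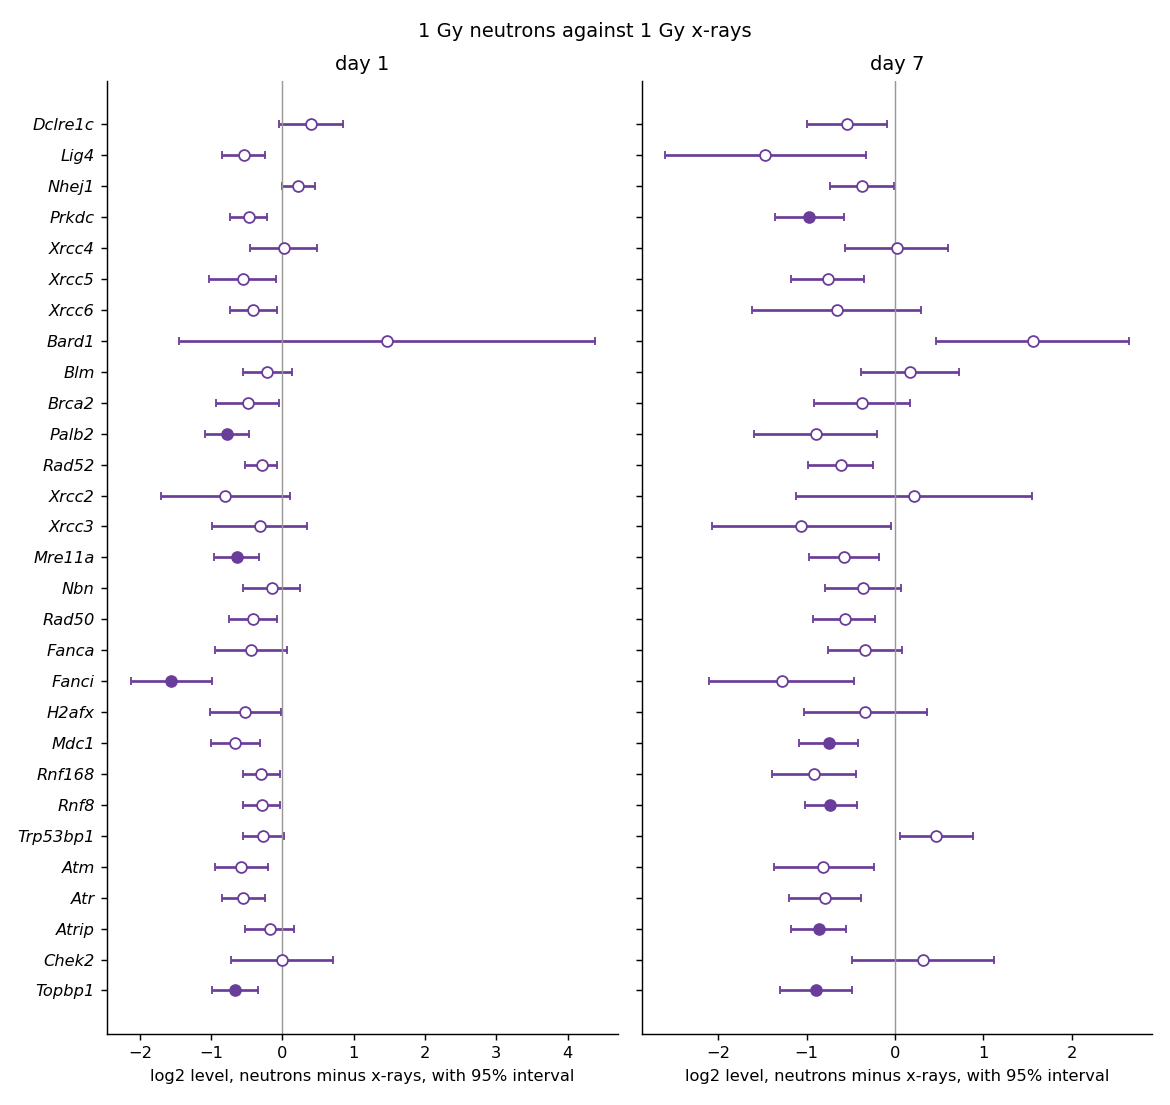
Difference in mean log2 level between 1 Gy neutrons and 1 Gy x-rays for the 29 tested genes at day 1 and day 7, with 95% intervals; filled points were called. At day 1 the 4 called genes and at day 7 the 5 called genes all lie left of 0, and Prkdc, Palb2, Xrcc3, Atm and Fanci at day 7 rest on neutron arrays not well above background.

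Against 4 Gy x-rays, 1 Gy neutrons gave 0 calls among the 29 genes at day 1 by limma and 0 by the random variance test, where 0.0311% of all genes were called. At an unadjusted p under 0.05, 6 were higher and 2 lower after neutrons, a looser rule for which no share of all genes was counted. Atm (0.63, SE 0.16), Prkdc (0.61, SE 0.16) and Trp53bp1 (0.56, SE 0.16) did not overlap between the groups, nor did Brca2 (−0.74, SE 0.21). That is 3 higher and 1 lower, against 1.3% and 0.877% of all genes. With the slide as a random block 5 were called higher and 1 lower. No slide held arrays of both groups, so this block cannot separate slide from exposure. The absence of calls does not show the exposures to be alike at day 1.

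At day 7, 1 was higher and 10 were lower after 1 Gy neutrons than after 4 Gy x-rays, where 37.4% of all genes were called (22.7% higher and 14.6% lower). Topbp1 differed by −1.19 (SE 0.17, adjusted p = 6.95e-05), Rnf168 by −1.05 (SE 0.20), Atrip by −0.87 (SE 0.12) and H2afx by −0.78 (SE 0.14). Rnf8, Brca2 and Nhej1 differed by −0.68, −0.63 and −0.59. Fanci, Xrcc3 and Prkdc were not well above background on any neutron array and were at least 1.76-fold, at least 1.35-fold and at least 1.19-fold lower. Bard1 was higher by 2.76 (SE 0.29, with 5 of the 6 neutron mice in the fit), which was not called when its probes were averaged: its 2 other probes gave 2.98 and −1.22, the latter from the probe with the fewest dim spots. In all, 12 lay lower and 1 higher without overlap (16.6% and 21.5% of all genes). With scan date as a block 1 was higher and 3 were lower. The direction again depended on how background was treated. With normexp 1, Bard1, was higher and 1, H2afx, lower, and the median difference was 0.14, against 0.13 over all genes. Without normexp these medians were −0.59 and −0.11. Prkdc (0.82), Brca2 (0.66), Fanci (0.63), Xrcc3 (0.52) and Nhej1 (0.05) changed sign with normexp.

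The change between the days was tested by subtracting the effect of day 1 from that of day 7, each against controls of its own day. With 4 Gy x-rays 7 of the 29 genes changed upwards and 0 downwards, where 19.8% of all genes were called (11.3% upwards and 8.45% downwards). Fanci went from −2.24 to 0.51, a change of 2.75 (SE 0.38, adjusted p = 1.85e-05), and Trp53bp1 from −1.53 to 0.61, a change of 2.14 (SE 0.19, adjusted p = 1.66e-07). Topbp1 changed by 1.73 (SE 0.27), Blm by 1.59 (SE 0.17), Palb2 by 1.57 (SE 0.29), Atm by 1.46 (SE 0.26) and Prkdc by 0.91 (SE 0.21). Of these 7, Trp53bp1 and Blm were above their controls at day 7 by a call of their own, Prkdc was still below, and the other 4 were not called at day 7. The day 1 value of Fanci rests on x-ray arrays of which most were not well above background for its probe. With normexp its change was 0.17, and 0 of the 29 genes were called.

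After 1 Gy neutrons 2 genes changed upwards between the days and 1 downwards, where 24.1% of all genes were called (16.1% upwards and 7.94% downwards). Trp53bp1 went from −0.97 to 0.74 (1.71, SE 0.22, adjusted p = 2.02e-06) and Blm from −0.59 to 0.42 (1.02, SE 0.22, adjusted p = 0.000947), while Rnf8 went from −0.27 to −1.08 (−0.81, SE 0.17, adjusted p = 0.000602). After 1 Gy x-rays only Trp53bp1 was called, from −0.70 to 0.27 (0.97, SE 0.16, adjusted p = 0.000321), where 7.19% of all genes were called (5.05% upwards and 2.14% downwards). With quantile normalization the neutron count was 2 upwards and 3 downwards.

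**Figure D4:**
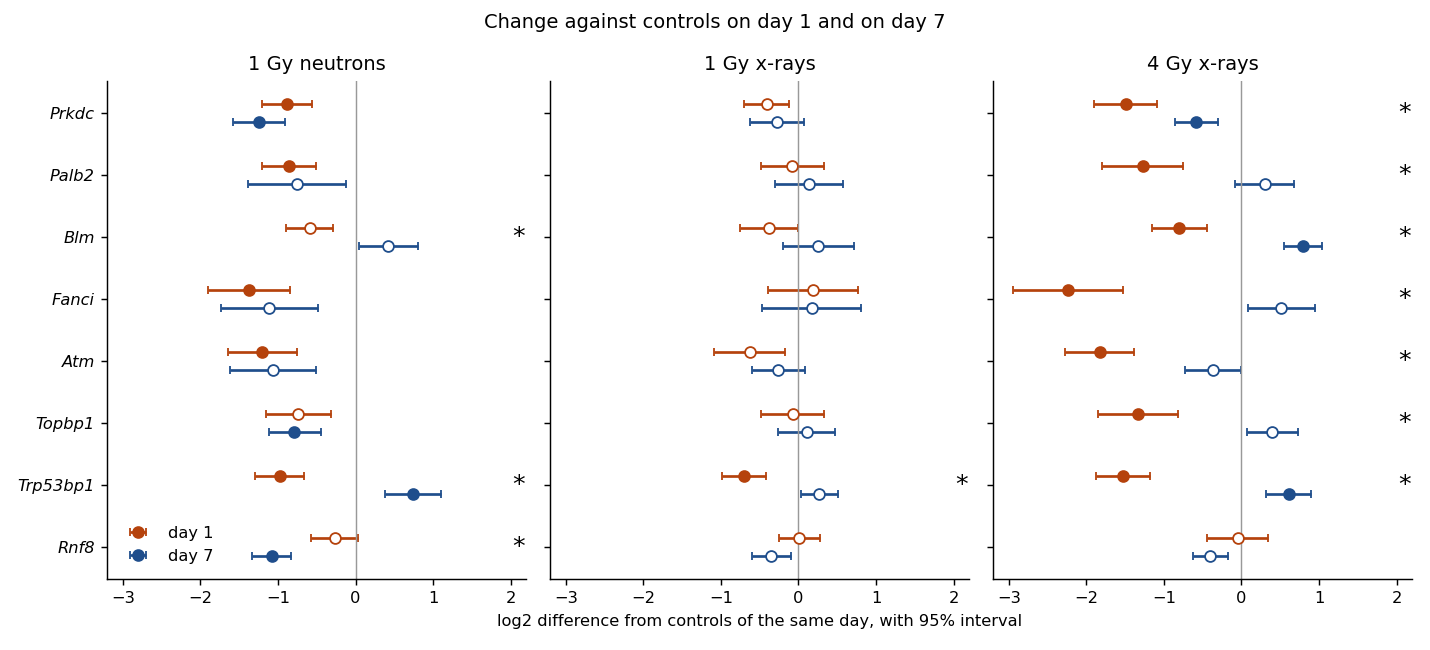
Log2 difference from the controls of the same day, with 95% intervals, at day 1 and day 7 for the 8 genes whose change between the days was called after at least 1 exposure; filled points were called against controls and an asterisk marks a called change between days. After 4 Gy x-rays the points of Fanci, Topbp1, Palb2, Blm and Trp53bp1 lie left of 0 at day 1 and right of 0 at day 7; Prkdc, Palb2, Atm and Fanci after 1 Gy neutrons on day 7 rest on arrays not well above background. Fanci after 4 Gy x-rays on day 1 rests mostly on such arrays.

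After the low neutron dose none of the 29 genes was called by limma or by the random variance test on any day. Shares in brackets below are of calls. The counts at an unadjusted p under 0.05 follow a looser rule, for which no share of all genes was counted. At day 1 (0.00622% of all genes called, all lower), 1 was higher and 2 were lower at an unadjusted p under 0.05, with Mdc1 the lowest (−0.75, SE 0.26). At day 3 (1.54%, with 0.547% higher and 0.988% lower), 0 were higher and 5 lower at that p, and Mdc1 (−0.76, SE 0.19, adjusted p = 0.0677), Atm (−0.60, SE 0.19) and Prkdc (−0.47, SE 0.12) did not overlap with their controls. At day 7 (0.547%, with 0.504% higher and 0.0435% lower), 1 was higher and 6 were lower at that p. The median changes of the 29 genes were −0.20, −0.23 and −0.21 at days 1, 3 and 7, against 0.01, −0.05 and −0.02 over all genes. With normexp the day 7 median was 0.15, against −0.04 over all genes, so its direction turned, while those of days 1 and 3 were −0.28 and −0.15.

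After 1 Gy x-rays on days 3 and 7, 0 of the 29 genes were called by either test. Here too the shares are of calls, and none was counted at an unadjusted p under 0.05. At day 3 (1.41% of all genes called, 1.11% higher and 0.305% lower), 1 was higher and 0 were lower at an unadjusted p under 0.05; this was Chek2 (0.84, SE 0.25, adjusted p = 0.118), whose exposed mice lay above the controls. At day 7 (3.74%, with 2.64% higher and 1.1% lower), 2 were higher and 5 lower at that p, with Dclre1c (0.56, SE 0.16, adjusted p = 0.051) nearest to a call. With scan date as a random block 1 gene was called higher at day 3.

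A further 83 genes of the same pathways were listed, of which 71 were tested. After 1 Gy neutrons on day 1, 2 of these rose and 21 fell (29.6% of the 71, against 10.7% of all genes), and after 4 Gy x-rays 3 rose and 28 fell (39.4%, against 16.6%). At day 7, 6 rose and 27 fell after 1 Gy neutrons (38% lower, against 17.8%). The other counts lay near the share of all genes. In the 4 Gy x-ray mice of day 7, 7 rose and 6 fell (8.45% lower, against 8.12%, with 7.71% of all genes higher). With 1 Gy x-rays 3 rose and 2 fell at day 1 (2.82% lower, against 3.8%, with 2.66% of all genes higher), and 1 rose and 1 fell at day 7 (1.41% lower, against 1.1%, with 2.64% higher). Of the 17 tested checkpoint genes among them, 8 fell after 1 Gy neutrons on day 1 and 9 after 4 Gy x-rays, and of the 23 recombination genes 5 and 9 fell.

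The largest called change of each list gave the following at day 1. After 1 Gy neutrons, Parp1, a break sensor, fell by 1.65 (SE 0.15), Fancb of the Fanconi core complex by 1.56 (SE 0.20), Usp28, a deubiquitinase that binds 53BP1, by 1.34 (SE 0.17) and the replication fork protein Timeless by 1.21 (SE 0.19), while Rad54b rose by 1.67 (SE 0.28). After 4 Gy x-rays, the ligase Lig1 fell by 2.35 (SE 0.40), Fancm by 1.99 (SE 0.16, with 4 of the 5 exposed mice), the exonuclease Exo1 by 1.84 (SE 0.27) and Rif1, the partner of 53BP1, by 1.70 (SE 0.23), while Wee1, a kinase that restrains mitosis, rose by 1.91 (SE 0.32). The mean level of Lig1 was 4.37 after these x-rays and 6.72 in the controls. After 1 Gy x-rays Rad54b rose by 1.55 (SE 0.28), and Fancm and the methyltransferase Setd8 fell by 0.84 (SE 0.12) and 0.78 (SE 0.16). Some of these probes were dim, which makes the sizes less sure. Mean levels were −5.26 for Exo1 and −4.44 for Fancm after 4 Gy x-rays. Fancb was at −3.92 after 1 Gy neutrons, and Rad54b at −4.16 in the controls.

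At day 7 both directions were called. After 1 Gy neutrons Lig1 rose by 2.52 (SE 0.21) and Setd8 by 1.80 (SE 0.19), while the helicase Helq fell by 1.64 (SE 0.22), the clamp subunit Hus1 by 1.25 (SE 0.29) and Fance by 1.17 (SE 0.13). Lig1 then had a mean level of 9.97, against 7.45 in the controls, far above the median probe. Whether its probe measures Lig1 alone was not tested. In the 4 Gy x-ray mice Wee1 rose by 0.90 (SE 0.19) and Bre by 0.83 (SE 0.14), while Parp1 fell by 1.04 (SE 0.15) and Fance by 0.57 (SE 0.13). After 1 Gy x-rays Polm, a polymerase of end joining, fell by 0.70 (SE 0.15) and Swi5 rose by 0.67 (SE 0.14). Between the days after 4 Gy x-rays 20 of the 71 changed upwards and 0 downwards (11.3% and 8.45% of all genes), led by Exo1 (2.85, SE 0.36) and Trp53 (2.62, SE 0.28). Exo1 was dim in the x-ray mice of day 1, with a mean level of −5.26.

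Markers of blood cells moved with these changes. In bulk blood, fewer cells of a type and less RNA per cell cannot be told apart. At day 1 all 9 tested B cell genes fell in the 1 Gy neutron mice and in the 4 Gy x-ray mice, with medians of −2.62 and −4.30, and their mean level was 2.63 to 3.40 in the controls, −0.92 to 1.12 after neutrons and −1.72 to −0.35 after x-rays. After 1 Gy x-rays on day 1, 7 of the 9 fell (mean level 1.81 to 2.46). At day 7, 7 of 9 fell after 1 Gy neutrons and 9 of 9 after 4 Gy x-rays (mean level 0.79 to 1.30 and −0.04 to 0.50, against 2.87 to 3.14 in the controls). Of 10 T cell genes, 3 fell after 1 Gy neutrons and 5 fell with 1 rising after 4 Gy x-rays on day 1 (mean level 1.39 to 2.72 and 0.86 to 2.14, against 2.58 to 3.12). Their part in the changes of the repair genes was not tested.

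Genes of dividing cells and red cell precursors moved as well. Of 18 proliferation genes, 10 fell and 2 rose after 4 Gy x-rays on day 1, and 14 rose at day 7 (mean level 1.83 to 2.28, against 0.33 to 1.40 in the controls). With 1 Gy neutrons 7 of the 18 rose at day 7 (mean level 1.56 to 2.08). All 10 erythroid genes rose after 1 Gy neutrons on day 7 (mean level 6.03 to 7.03, against 3.58 to 4.23), with a median of 2.82, and 6 of the 10 rose after 1 Gy x-rays on that day. At day 1 their mean level lay below every control (3.33 to 4.2) after 1 Gy neutrons (1.48 to 3.30, 2 of 10 fell), 1 Gy x-rays (1.66 to 3.13, 5 fell) and 4 Gy x-rays (0.58 to 2.06, 5 fell). Of 8 neutrophil genes, 4 rose on day 7 with 1 Gy neutrons and 3 with 4 Gy x-rays, where 4 of 8 natural killer cell genes also rose. The mean level of 5 liver genes ranged from 0.85 to 7.27 among the controls of day 1 and from 7.97 to 8.70 after 4 Gy x-rays. Of 14 targets of p53, 6 rose at day 1 after neutrons of 1 Gy and after either dose of x-rays. The part of these lists in the changes of the repair genes was not tested.

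In 4 comparisons with controls, the median of the 29 genes lay at or below that of all genes under each of 5 normalizations, while the counts of calls varied. With dim spots missing, the median after 1 Gy neutrons on day 7 is of the genes left in that fit. No share of all genes called under the same setting is given beside the counts, so they do not set these genes apart. Centring on 7 spike-in probes moved the median of all genes to 0.41 after 1 Gy neutrons on day 1, 0.17 after 4 Gy x-rays on day 1, −2.11 after 1 Gy neutrons on day 7 and 0.19 after 4 Gy x-rays on day 7. The medians of the 29 genes were then 0.04, −0.24, −2.82 and 0.13, below that of all genes in all 4, with 0 called, 4 lower, 26 lower and 1 higher. The 26 lower stand beside the median of −2.11 over all genes. Trp53bp1 after 1 Gy neutrons on day 7 was then at −1.32, above the median of all genes, and its rise is a rise relative to the other genes of the array. Quantile normalization gave 6, 8 and 13 lower and 0 higher in the first 3 comparisons, and 3 higher with 3 lower in the fourth.

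Subtracting background by normexp with an offset of 50, which compresses dim probes, left few calls. The counts were 1 lower after 1 Gy neutrons on day 1, 0 after 4 Gy x-rays on day 1, 2 lower after 1 Gy neutrons on day 7 and 0 after 4 Gy x-rays on day 7. The medians of the 29 genes were then −0.30, −0.04, 0.09 and −0.03, against −0.13, 0.13, 0.12 and −0.03 over all genes. The values that changed sign were Fanci (0.14), Palb2 (0.26) and Blm (0.10) after 4 Gy x-rays on day 1, and Prkdc (0.68), Lig4 (0.46), Rad52 (0.45), Topbp1 (0.09) and Nhej1 (0.07) after 1 Gy neutrons on day 7. With dim spots left out instead, which left 20 of the 29 genes in the third comparison, 7, 10 and 16 genes were lower in the first 3 comparisons, and 4 higher with 4 lower in the fourth.

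**Figure D5:**
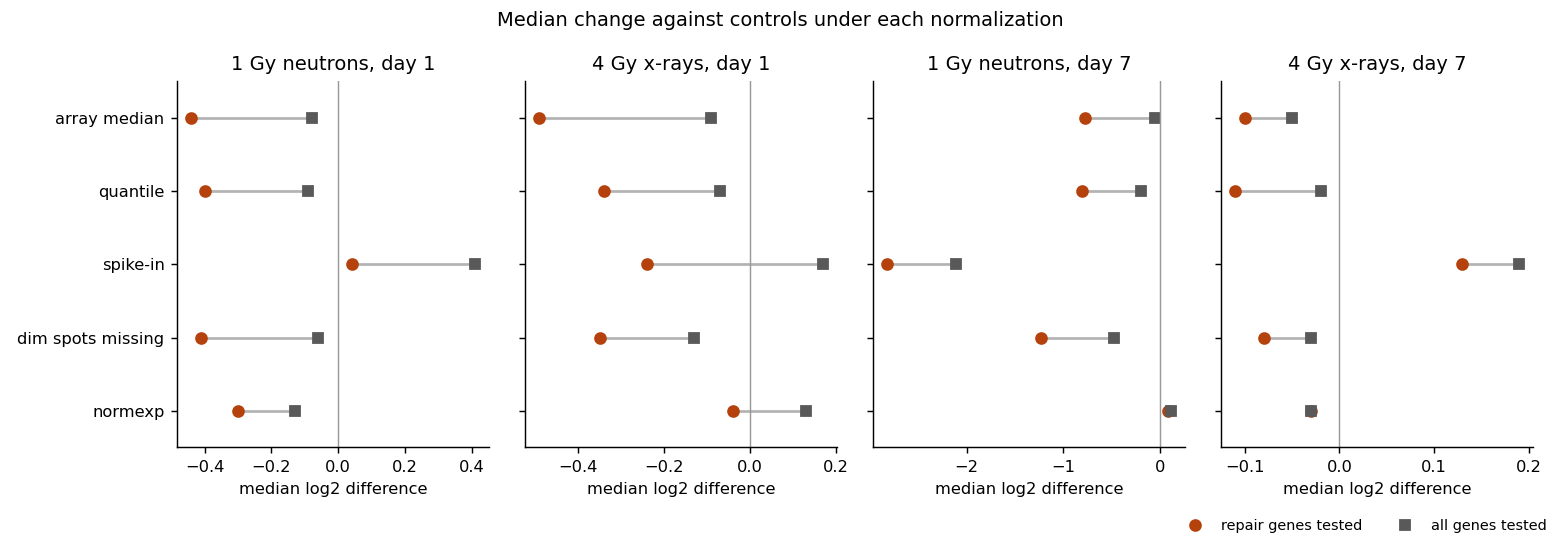
Median log2 change against controls of the 29 repair and signalling genes (circles) and of all genes tested (squares) in 4 comparisons under 5 ways of normalizing; the horizontal scale differs between panels. The circle lies left of the square in every row except normexp for 4 Gy x-rays on day 7, where both are at −0.03.

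Scan date bore on some counts. Of the 6 arrays of 1 Gy neutrons on day 1, 4 shared the date of the controls, and with date as a block, which compares those arrays only, 6 genes were lower and Atr was not called (−0.73, adjusted p = 0.017). At day 7, 1 of the 6 neutron arrays shared the date of the controls, and 5 genes were lower on that basis. The 4 Gy x-ray mice of day 7 and their controls were scanned on different dates, which leaves scan date confounded with exposure, and they cannot be told apart. At day 1 the 4 Gy x-ray arrays shared no date with their controls either. A random block for date, with which 11 genes were lower, cannot separate date from exposure there. The same holds for 1 Gy x-rays on each day.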

How the data were processed

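Blood RNA of 72 mice in 13 groups was hybridised by the authors to 1-colour Agilent arrays, and the deposited intensity values are the processed signals of Agilent Feature Extraction 12.0.2.2, which are background-subtracted per spot. The deposited log2 table of processed values was used only as an alternative, because most of its columns followed another array. No column belonged to another series.

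From the intensities, control spots and outlier flags were left out and probes were kept where dim or outlier spots made up under 25% of those on the day 1 and day 7 arrays, which gave 19808 probes. Values were taken to log2, centred on the median of each array, and reduced to the brightest detected probe of each of 16086 genes. Pairs of groups, or 4 groups for a change between days, were fitted with limma 3.58.1 in R 4.3.3 with calls made where p was under 0.001 and the false discovery rate of Benjamini and Hochberg was under 5%. The fits were tested on simulated data. Standard errors and intervals cover the spread between mice, and the number of arrays limits the precision.

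The members and lists were chosen with earlier results of these data known. All listed genes were accounted for by name, the called ones with their values and the others with their range, and for other pathway genes the largest called change of each list was named, except 1 that is not reported here. The alternatives were normexp with an offset of 50, quantile normalization, spike-in centring, dim spots as missing, a 1.5-fold filter (10328 genes), the mean of probes, all groups in one fit, the random variance test of the study's methods, blocks for scan date and replicate number, the value table and leaving out each mouse. A random block for the slide and the fit without arrays whose table column followed another condition were added after seeing the data. Promoter sequences were taken from RefSeq (GRCm38.p6).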

Additional observations from a re-analysis of the deposited data

Results flagged for a closer look

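Single mice stood apart from their group in 7 of 64 pairs of a gene and a group that were checked with Dixon's test, where chance gives about 1 in 20. Control mouse 4 of day 1 was the lowest of 5 for Palb2 (−3.66, next −3.05), Mdc1 (0.08, next 0.59) and Topbp1 (−0.99, next −0.20). Control mouse 2 of day 7 was the lowest of 6 for Xrcc5 (−0.88, next −0.43) and Mre11a (−0.27, next 0.14), and control mouse 3 of day 7 was the highest for Rnf168 (0.10, next −0.12). Among the 4 Gy x-ray mice of day 7, mouse 1 was the highest for Prkdc (−2.10, next −2.42).

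The effect at day 7 differed from that at day 1 by a test of the difference (limma) for 11 pairs of a gene and an exposure. After 1 Gy neutrons these were Trp53bp1 (1.71), Blm (1.02) and Rnf8 (−0.81), and after 1 Gy x-rays Trp53bp1 (0.97). After 4 Gy x-rays they were Fanci (2.75), Trp53bp1 (2.14), Topbp1 (1.73), Blm (1.59), Palb2 (1.57), Atm (1.46) and Prkdc (0.91).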

How the results depend on the processing

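Counts of called repair and signalling genes are given as day 1 and day 7 against controls unless stated. No share of all genes called under each setting is given beside them. With spike-in centring the median of all genes on day 7 was −2.11 after 1 Gy neutrons and −1.13 after 0.25 Gy neutrons. For 1 Gy neutrons on that day it was −1.15 against 1 Gy x-rays and −2.4 against 4 Gy x-rays. With normexp they were 1 and 2 after 1 Gy neutrons, 0 at day 1 after 1 Gy x-rays, and 0 and 0 after 4 Gy x-rays; 0 for 1 Gy neutrons against 1 Gy x-rays on day 1, 5 higher and 1 lower at day 7 (0 and 5 without normexp), and 2 against 4 Gy x-rays on day 7; and 1, 0 and 0 for the changes between days with 1 Gy neutrons and with the lower and higher x-ray dose. Spike-in centring gave 0 and 26 with 1 Gy neutrons, 0 and 1 with 1 Gy x-rays, 4 and 1 with 4 Gy x-rays and 16 with 0.25 Gy neutrons on day 7; 0 and 18 for neutrons against 1 Gy x-rays and 27 against 4 Gy x-rays on day 7; and 26 and 2 for the changes after 1 Gy neutrons and 1 Gy x-rays. The 1.5-fold filter, which tests 13 of the genes, gave 3 and 2 at day 7 after 1 Gy neutrons and 4 Gy x-rays, 2 and 2 for neutrons against 1 Gy x-rays and 4 against 4 Gy x-rays on day 7. With dim spots missing, 12 were called for neutrons against 1 Gy x-rays on day 7 and 9 for the neutron change, where quantile normalization gave 5. All 13 groups in one fit gave 1 after 0.25 Gy neutrons on day 1, 1 at day 3, 1 after 1 Gy x-rays on day 7, 13 for neutrons against 1 Gy x-rays on day 7, 2 against 4 Gy x-rays on day 1, and 5 and 2 for the changes after 1 Gy neutrons and 1 Gy x-rays. The slide block gave 6 for neutrons against 4 Gy x-rays on day 1, where no slide held both groups and the block cannot separate them. The scan date block gave 0 after 1 Gy x-rays on day 1 and 1 at day 3, 5 after 1 Gy neutrons on day 7, 0 and 0 against 1 Gy x-rays and 4 against 4 Gy x-rays on day 7; it was not run for 0.25 Gy neutrons on days 1 and 7, where all arrays had 1 date, nor for 4 Gy x-rays on day 7. Without the arrays whose table column followed another condition, 0 were called after 1 Gy x-rays on day 1, 6 after 1 Gy neutrons on day 7, 2 and 1 against 1 Gy x-rays and 7 against 4 Gy x-rays on day 7. Replicate numbers did not pair the mice (0 of 14 comparisons had every pair's correlation over 0.1, range −0.53 to 0.64), and with the replicate block 3 and 7 were called after 1 Gy neutrons, 0 at day 1 after 1 Gy x-rays, 6 and 1 with 4 Gy x-rays, 1 and 1 for neutrons against 1 Gy x-rays and 5 against 4 Gy x-rays on day 7. Values that changed sign with normexp were, after 4 Gy x-rays on day 1, Fanci (0.14), Palb2 (0.26) and Blm (0.10); after 1 Gy neutrons on day 7, Prkdc (0.68), Lig4 (0.46), Rad52 (0.45), Topbp1 (0.09) and Nhej1 (0.07); against 1 Gy x-rays on day 7, Prkdc (0.82) and Topbp1 (0.06); against 4 Gy x-rays on day 7, Prkdc (0.82), Brca2 (0.66), Fanci (0.63), Xrcc3 (0.52) and Nhej1 (0.05); and for the 4 Gy x-ray change, Palb2 (−0.07). With spike-in centring they were Trp53bp1 after 1 Gy neutrons on day 7 (−1.32) and the changes of Trp53bp1 (−0.83) and Blm (−1.52) after 1 Gy neutrons and of Trp53bp1 after 1 Gy x-rays (−0.09). The cause was not tested. Leaving out each mouse gave 6 to 10 and 11 to 14 after 1 Gy neutrons, 1 to 1 and 0 to 1 after 1 Gy x-rays (1 without control mouse 6), 6 to 11 and 2 to 9 after 4 Gy x-rays, and 0 to 0 after 0.25 Gy neutrons on each day and after 1 Gy x-rays on day 3. It gave 2 to 4 for neutrons against 1 Gy x-rays on day 1 (2 without neutron mouse 1, 4 or 5 or x-ray mouse 2, 3 or 6), 3 to 7 at day 7 (3 without neutron mouse 3 or x-ray mouse 3), 0 to 0 against 4 Gy x-rays on day 1 and 8 to 12 at day 7. For the changes it gave 3 to 6 after 1 Gy neutrons (6 without neutron mouse 5 of day 7), 1 to 2 after 1 Gy x-rays (2 without control mouse 1 of day 1 or 2, 3 or 6 of day 7) and 7 to 9 after 4 Gy x-rays. Under the random variance test all 69 single calls kept their direction and their side of the threshold. Dim signal limits what can be said of day 7 after 1 Gy neutrons.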
